A study of Mus musculus with 2 samples.

Results

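The 10 genes described here encode the proximal insulin signalling cascade in mouse liver: the receptor gene Insr, the substrate genes Irs1 and Irs2, the phosphoinositide 3-kinase genes Pik3r1 and Pik3ca, the kinase genes Akt1 and Akt2, and 3 negative regulators, Grb10, Grb14 and Ptpn1. A probe set, the group of probes that reads 1 transcript region on an Affymetrix array, was included when its only gene symbol in the platform annotation was one of these 10. This gave 29 of the 45101 probe sets on the array, and every one is reported. The study compared liver RNA of Bglu3 congenic mice with that of C57BL/6 apoE-/- control mice, with 1 array per group. Both groups carry the strain label C57BL/6 and the disease label hyperglycemia, and both received chow from weaning at 3 weeks of age and then a Western diet, begun at 6 weeks, for 12 weeks. Bglu3 names a blood glucose locus of mouse chromosome 1. Congenic strains hold a donor stretch of chromosome on the background of another strain. The apoE genotype of the congenic mice, the donor strain, the number of mice behind each array and the feeding state at tissue collection are not stated in the sources read. With 1 array per group there was no spread between animals and no test, and each difference given here is that of 2 single arrays without replication.

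Insulin binding activates the tyrosine kinase of its receptor, which phosphorylates the substrate proteins IRS1 and IRS2. These recruit the regulatory subunit of phosphoinositide 3-kinase and with it the catalytic subunit, whose lipid product brings AKT kinases to the membrane. In hepatocytes AKT restrains FoxO transcription factors and glucose output and favours glycogen and fat synthesis. GRB10 and GRB14 bind the activated receptor and inhibit it, and PTP1B, the product of Ptpn1, removes its phosphates.

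By the brightest probe set of each gene, the largest differences within the cascade were those of Irs1 and Pik3r1, and they ran in opposite directions. Irs1 had an intensity of 488 for the congenic and 210.0 for the control array. Pik3r1 had 234 for the congenic and 771 for the control array in that probe set. The other substrate gene, Irs2, lay within 1.5-fold, at 141 for the congenic and 109.9 for the control array. The receptor, the catalytic subunit, both AKT genes and the 3 negative regulators also lay within 1.5-fold. Thus 1 gene of the cascade was higher and 1 lower by that much, beside 7.59% and 5.26% of all expressed genes. A difference is given throughout as log2(intensity + 5) of the congenic array minus that of the control array, which understates the difference of dim probe sets. Because liver tissue mixes cell types, fewer cells of a type and less RNA per cell cannot be told apart.

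The upstream sequences of the substrate genes are shown first, because Irs1 and Irs2 are the substrate pair of the cascade and their sequences share a motif arrangement. RefSeq sequence was available here for 9 of the 10 genes, and the 250 bases before each annotated transcription start were searched on both strands for 3 motifs. These were the E-box CACGTG, bound by basic helix-loop-helix factors, the core CAAAACA of the insulin response element, and the FoxO core GTAAACA. Of 32817 such windows of all genes, 6.02% held the E-box, 5.56% the insulin response core, 3.16% the FoxO core and 0.296% both of the first pair. Irs1 and Irs2 were the 2 members with an E-box, and each also held the insulin response core, Irs1 at 2 places. One upstream window of Akt1 held the FoxO core, 161 bases before its start, and no other member window held a motif. In both genes the motifs started within 10 bases of each other, an arrangement found in 7 of all windows (0.0213%). The limit of 10 bases was chosen after these letters had been read, so the share is a description. The other 5 windows belonged to Irs4, another substrate gene, Klf11, Pcbp1, Pyroxd1 and 1700019P21Rik. The windows of 30 bases on the gene's own strand are given here in assembly GRCm38.p6, with the E-box and the insulin response core in capitals.
Irs1 (chr1:82291533-82291562, minus strand): ggctccgtCACGTGTTTTGctcctctggag
Irs2 (chr8:11008952-11008981, minus strand): cgcagagtCACGTGtTGTTTTGctcttagt
Irs4 (chrX:141725350-141725379, minus strand): gcgacggtCACGTGtTGTTTTGcccactgc

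In Irs1 the core, read as TGTTTTG, begins 4 bases after the first base of the E-box and overlaps it. In Irs2 and Irs4 it begins 7 bases after, with 1 base between the motifs. The E-box lies 115 bases before the annotated start of Irs1 and 44 bases before that of Irs2. A match is a run of letters and not a measured binding site. Of the other genes with this arrangement, 3 were expressed here and all lay within 1.5-fold. Klf11, a transcription factor, had 151 against 135 (log2 difference 0.15), Pcbp1, an RNA-binding protein, 2159 against 2190 (-0.02), and Pyroxd1 119 against 117 (0.02). Irs4 was dim at 17.1 and 11.8, below the median of both arrays. The whole 250-base windows of the substrate genes are given because they carry the arrangement in its context, with every motif match in capitals.
Irs1 (chr1:82291440-82291689, minus strand): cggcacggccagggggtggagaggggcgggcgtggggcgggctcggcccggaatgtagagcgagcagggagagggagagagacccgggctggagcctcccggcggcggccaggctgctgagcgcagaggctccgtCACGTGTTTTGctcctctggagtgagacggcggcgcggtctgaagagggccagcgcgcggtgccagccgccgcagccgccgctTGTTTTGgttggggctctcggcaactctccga
Irs2 (chr8:11008930-11009179, minus strand): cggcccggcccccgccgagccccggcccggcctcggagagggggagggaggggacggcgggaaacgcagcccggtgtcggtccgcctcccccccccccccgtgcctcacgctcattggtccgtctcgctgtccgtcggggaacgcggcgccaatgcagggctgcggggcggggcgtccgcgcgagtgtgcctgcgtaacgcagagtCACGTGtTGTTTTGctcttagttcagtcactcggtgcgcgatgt

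Pik3r1 is shown for contrast, because RefSeq gives it a pair of starts and neither window holds any of the 3 motifs. The gene is known to encode a long regulatory subunit and shorter forms that begin within the gene. The window of the first start is 76.4% G and C, that of the internal start 42.4%. The annotation used here does not say which transcript form each probe set of Pik3r1 reads.
Pik3r1, first start (chr13:101768218-101768467, minus strand): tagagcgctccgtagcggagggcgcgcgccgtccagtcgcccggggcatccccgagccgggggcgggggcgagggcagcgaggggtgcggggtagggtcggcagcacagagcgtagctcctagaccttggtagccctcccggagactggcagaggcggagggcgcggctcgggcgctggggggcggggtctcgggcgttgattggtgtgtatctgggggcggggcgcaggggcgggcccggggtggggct
Pik3r1, internal start (chr13:101692631-101692880, minus strand): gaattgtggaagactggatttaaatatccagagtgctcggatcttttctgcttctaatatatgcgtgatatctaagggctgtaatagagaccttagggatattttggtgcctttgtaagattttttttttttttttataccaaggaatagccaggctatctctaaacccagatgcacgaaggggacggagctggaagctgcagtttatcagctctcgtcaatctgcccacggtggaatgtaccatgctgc

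A probe set counted as expressed when it reached the array's median in either group, 19.3 in the congenic and 19.7 in the control group. Of the 29 probe sets, 24 met this and 5 did not. All 10 genes had at least 1 expressed probe set, and Irs1 and Irs2 were read by a single probe set each. Of the 24, 1 exceeded its control value by 1.5-fold or more (4.17%) and 4 were lower (16.7%). One of the 4, a probe set of Insr, was expressed through the control array alone, and with expression required on both arrays 3 were lower. Among all 20973 expressed probe sets with 1 gene symbol, 7.22% were higher and 6.04% lower by that much. Of the 4 lower probe sets, 3 belong to Pik3r1 and read the same gene, so they are not independent. Counted by the brightest probe set of each gene, 1 of 10 genes was higher and 1 lower, against 7.59% and 5.26% of all 12613 expressed genes. With 10 genes, 1 in each direction is close to these shares. Large differences were commoner among dim probe sets. In the dim range (mean intensity under 50) 12.3% of all expressed probe sets were higher and 11.8% lower, and 0 and 2 of the 6 from the cascade. In the middle range 6.28% were higher and 3.85% lower, and 0 and 1 of the 9 from the cascade. In the bright range (200 or more) 3.31% were higher and 2.77% lower, and 1 and 1 of the 9 from the cascade. The median difference over the 10 genes was 0.13, beside 0.04 over all expressed genes, and 7 of the 10 were higher at any size.

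**Figure D1:**
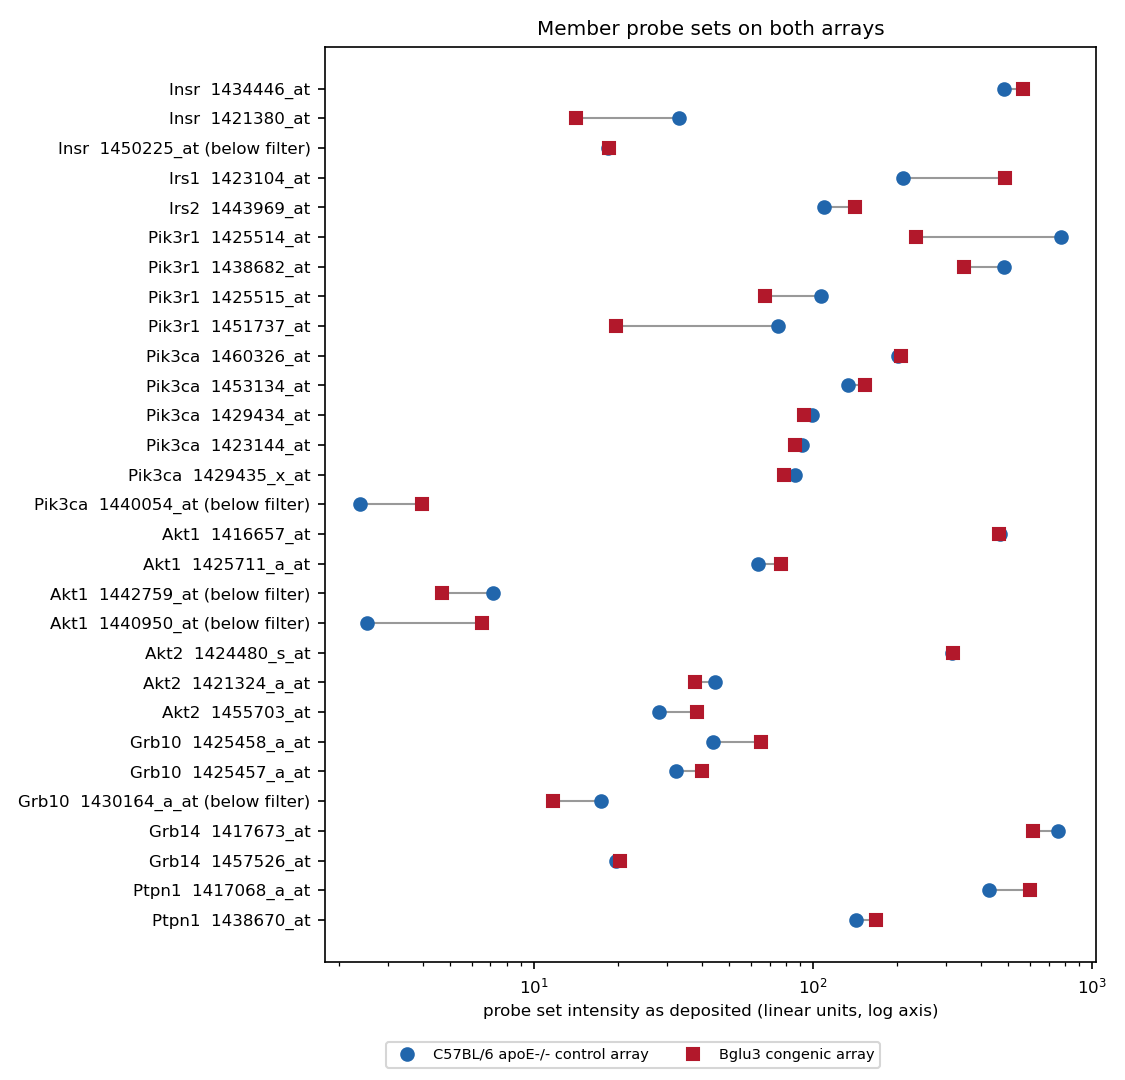
Intensity of each of the 29 probe sets on the control array (blue circles) and the congenic array (red squares), on a logarithmic axis in the deposited linear units. The line joining the symbols is long for Irs1, for 2 of the 4 Pik3r1 probe sets, for a dim Insr probe set and for an Akt1 probe set below the filter (6.53 against 2.53), and short for the 5 expressed Pik3ca probe sets.

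Insr, the receptor tyrosine kinase, was read by 3 probe sets that did not move together. Its brightest, 1434446_at, had 567 for the congenic and 484 for the control array (log2 difference 0.23). The dim 1421380_at had 14.2 against 33.1 (-0.99), and it counted as expressed through the control array alone. The third, 1450225_at, stood at 18.6 and 18.5, below the median on both arrays. The brighter probe set was thus slightly higher and the dimmer one lower in the congenic array. The expressed probe sets lay 1.22 apart on the log2 scale, where probe sets of a gene differed with an SD of 0.50 in the dim range and 0.15 in the bright range. No direction is given for Insr.

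Irs1, the substrate whose loss in mice is known to restrict growth and cause insulin resistance, was read by a single probe set, 1423104_at. Its congenic value of 488 was 2.32 times its control value of 210.0, and the log2 difference was 1.20. This ranked 147th from the top among the 12613 expressed genes. In the bright range to which this probe set belongs, 3.31% of 6970 expressed probe sets were higher by 1.5-fold or more. The difference lay between 1.14 and 1.23 with a pseudocount of 20 or none and under median centring, quantile normalization and removal of a loess trend. No second probe set was available to check it. Irs1 lies on chromosome 1, the chromosome of the Bglu3 locus, but whether the donor stretch includes Irs1 was not tested.

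Irs2, the substrate that insulin is known to repress in hepatocytes and FoxO factors to induce, was also read by 1 probe set. Probe set 1443969_at had 141 for the congenic and 109.9 for the control array (log2 difference 0.35). The gene was higher in the same direction as Irs1 but within 1.5-fold. The difference of Irs1 exceeded that of Irs2 by 0.85 on the log2 scale.

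Pik3r1 encodes the regulatory subunit that stabilises the catalytic subunit and docks it on the substrates. All 4 of its probe sets were lower in the congenic array. Probe set 1425514_at had 234 for the congenic and 771 for the control array (log2 difference -1.70). Probe set 1451737_at had 19.7 against 74.9 (-1.70). The remaining probe sets differed less. Probe set 1425515_at had 67.6 against 107.1 (-0.63), and 1438682_at had 348 against 484 (-0.47), which is within 1.5-fold. With a pseudocount of 20 the former was also within 1.5-fold, at -0.54. The 4 values therefore fell into a pair further below zero and a pair nearer it. Even so, 3 of them, including a probe set of each pair, carry the same source accession in the annotation. The match in size within the first pair depended on the pseudocount. Without a pseudocount 1425514_at and 1451737_at gave -1.72 and -1.93, and with a pseudocount of 20 they gave -1.64 and -1.26.

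By its brightest probe set Pik3r1 ranked 32nd from the bottom among the expressed genes. In the bright range 2.77% of probe sets were lower by 1.5-fold or more. Averaged over its 4 probe sets the difference was -1.12, with a median of -1.16. Of the 745 genes with at least 4 expressed probe sets, 105 (14.1%) had all of them lower, and Pik3r1 was the 1 gene of the 745 whose mean was at or below -1.12. Its probe sets spanned 1.23 on the log2 scale, where the median span of the 745 genes was 0.53 and 51 of them spanned as much or more. The direction was shared by every probe set, while the size depended on the probe set read. The exons or transcript ends that the probe sets cover are not stated in the sources, so the part of transcript forms in this spread was not tested.

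**Figure D2:**
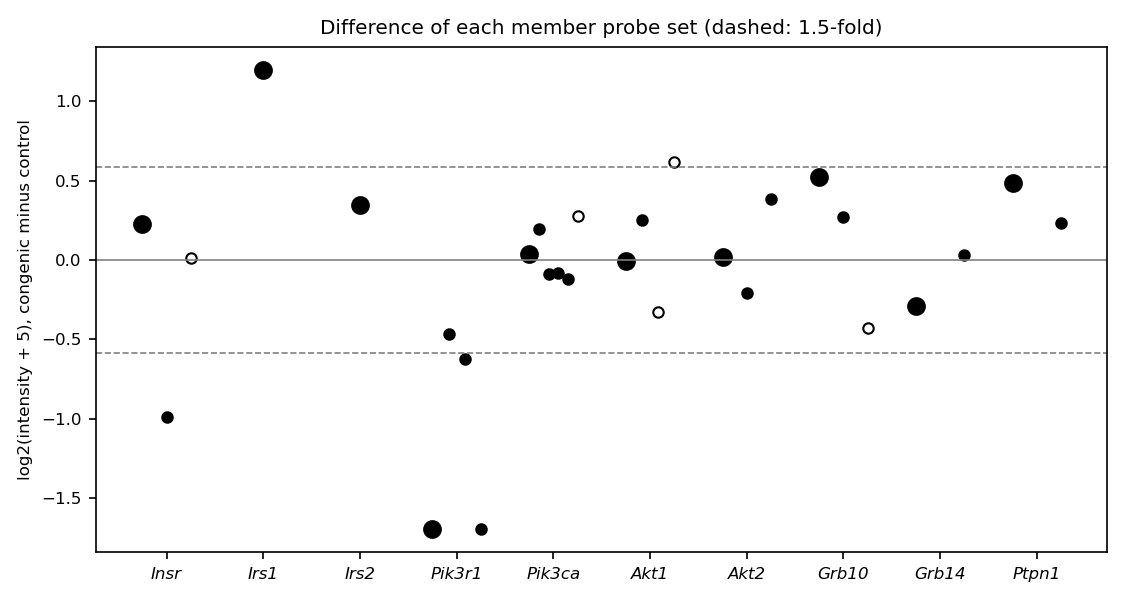
Log2 difference of every probe set by gene, with the congenic array higher above zero. Large symbols mark the brightest probe set of a gene, open symbols mark probe sets below the expression filter, and dashed lines mark 1.5-fold. All 4 Pik3r1 points lie below zero and the Irs1 point lies at 1.20.

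Pik3ca, the catalytic subunit that pairs with this regulatory subunit, was read by 6 probe sets, and the 5 expressed ones stayed close to zero. Its brightest, 1460326_at, had 207 for the congenic and 202 for the control array (log2 difference 0.04). The 5 ranged from -0.12 for 1429435_x_at (78.6 against 86) to 0.19 for 1453134_at (153 against 133), with 2 higher and 3 lower. Between them, 1429434_at had 92.9 against 99.3 (-0.09) and 1423144_at 86.3 against 91.7 (-0.08). Several share a source sequence, so they are not separate readings. The difference of Pik3r1 minus that of Pik3ca was -1.73 by the brightest probe sets and -1.11 by the means over expressed probe sets. The sixth probe set, 1440054_at, stood at 3.97 and 2.39, below the filter.

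The AKT kinases showed differences near zero in their brightest probe sets. Akt1, the widely expressed form, had 463 for the congenic and 466 for the control array in 1416657_at (log2 difference -0.01), and 77 against 63.8 in 1425711_a_at (0.25). Akt2, the form known to carry most of the metabolic response of hepatocytes to insulin, had 318 against 314 in 1424480_s_at (0.02). Its dimmer probe sets lay on either side, with 37.9 against 44.5 in 1421324_a_at (-0.21) and 38.3 against 28.1 in 1455703_at (0.39). None of the 5 expressed probe sets of these genes reached 1.5-fold. A pair of Akt1 probe sets was below the filter, 1442759_at at 4.68 and 7.14 and 1440950_at at 6.53 and 2.53. The latter differed by 0.61 on the log2 scale, past 1.5-fold, from values far under the array medians.

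The 3 negative regulators did not share a direction. Grb10, an adaptor of imprinted expression, had 65.3 for the congenic and 43.8 for the control array in 1425458_a_at (log2 difference 0.53) and 40.01 against 32.4 in 1425457_a_at (0.27), while 1430164_a_at was below the filter at 11.7 and 17.5. Ptpn1 was also higher in both probe sets, with 601 against 429 in 1417068_a_at (0.48) and 168 against 143 in 1438670_at (0.23). Grb14, the relative that is abundant in liver, had 616 against 755 in 1417673_at (-0.29) and 20.4 against 19.8 in 1457526_at (0.03). All 6 expressed probe sets of these genes lay within 1.5-fold. Grb10 was the nearest to that size among genes that did not reach it, and Grb10 exceeded Grb14 by 0.82 by the brightest probe sets and by 0.53 by the means.

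**Figure D3:**
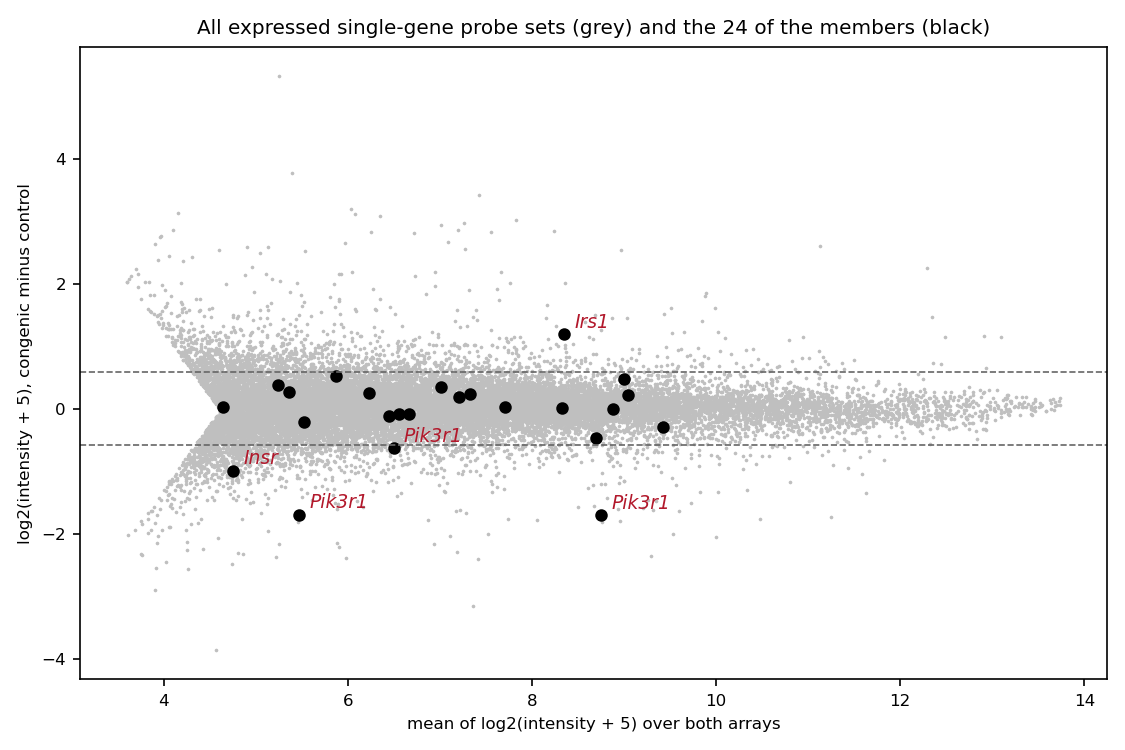
Log2 difference against mean level for all expressed single-gene probe sets (grey) and the 24 of the cascade (black), with dashed lines at 1.5-fold and names on the 5 beyond it. The grey cloud narrows with level, and the bright Irs1 and Pik3r1 points lie outside its dense part.

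The rest of the pathway was read through 6 further lists, with 95 expressed genes of 107 listed. By the brightest probe set of each gene, 9 of the 95 were higher by 1.5-fold or more (9.47%) and 4 lower (4.21%). The median over the 95 was 0.08. These shares are close to the 7.59% and 5.26% of all expressed genes. Counts for each single list, also by the brightest probe set, rest on few genes and stand beside the same 7.59% and 5.26%. On the list of other phosphoinositide 3-kinase genes, which includes the inhibitor Pik3ip1, 0 of 12 expressed genes reached 1.5-fold. Pik3r5 and Pik3r6, regulatory subunits known from immune cells, were the highest at 0.52 and 0.46. Pik3c3, the class III lipid kinase, and Pik3cb, another catalytic subunit, were the lowest at -0.18 and -0.11. The other regulatory subunits that can pair with Pik3ca were Pik3r2, at 93.5 against 71.4 (log2 difference 0.37), and Pik3r3, at 34.2 against 27.2 (0.29), both on the opposite side from Pik3r1.

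Among 17 expressed receptors and adaptors, Dok1, a docking protein that is prominent in blood cells, was the 1 gene past 1.5-fold, at 80.3 against 45.2 (log2 difference 0.76). Gab1, a docking protein that also recruits phosphoinositide 3-kinase, followed at 0.42. The lowest by the brightest probe set were the adaptor gene Sh2b2 at -0.55 and the docking gene Dok4 at -0.41, both dim. Sh2b2, at 16.55 against 26.46, counted as expressed through the control array alone, so its difference is partly set by the filter. Other probe sets of genes on this list lay further out. The 2 of Sh2b1 ran from -1.82 to -0.01, and the 2 of Ptpn11 from -0.03 to 0.65, with the brightest nearest zero in both. Igf1r, the receptor closest to the insulin receptor, stood at 32.2 and 31.9 (0.01).

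Of 22 expressed brakes of the pathway, 3 were higher and 1 lower by 1.5-fold, beside 7.59% and 5.26% of all expressed genes. Inpp5k, a phosphatase of the lipid product, had 97.9 against 53.4 (log2 difference 0.82). Ptpre, a receptor-type tyrosine phosphatase, had 123 against 73.7 (0.70). Phlpp2, which dephosphorylates AKT, had 79.2 against 49.7 (0.62). Socs1, an inhibitor that cytokines induce, was lower at 33.5 against 57.2 (-0.69). Its relative Socs3 had 243 against 357 (-0.55), within 1.5-fold. The probe sets of Ptpre (0.70 and 0.71), Phlpp2 (0.62 and 0.79) and Socs3 (-0.71 to -0.55) lay close together, while those of Inpp5k ran from 0.14 to 0.82.

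Among 23 expressed kinases and effectors below phosphoinositide 3-kinase, 2 were higher and 2 lower. The lower ones were both FoxO factors. Foxo3 had 247 against 434 (log2 difference -0.80), with its 3 probe sets between -1.41 and -0.80, and Foxo1 had 606 against 954 (-0.65), with its 4 probe sets between -0.79 and 0.16. Rps6kb2, a ribosomal protein kinase gene, and Tbc1d4, an AKT substrate in glucose uptake, were higher at 0.67 and 0.62 and dim on both arrays.

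Genes that FoxO factors are known or reported to raise in liver were mixed. By the brightest probe set, 2 of 11 were higher and none lower by 1.5-fold, with a median of 0.09. G6pc, whose enzyme releases glucose from its phosphate, had 2923 against 1321 (log2 difference 1.14), and Txnip, which encodes thioredoxin-interacting protein, 1562 against 1030.0 (0.60). The other expressed probe set of Txnip lay within 1.5-fold, at 0.26. The 2 probe sets of Sesn3 lay on either side of zero, with the brightest at 0.29 and the other at -0.63, past 1.5-fold. Pck1, the cytosolic enzyme of gluconeogenesis that is likewise insulin-repressed, stood at 6586 and 6668 (-0.02). By the brightest probe set Igfbp1, another insulin-repressed gene, had the lowest value at -0.49, followed by Ppargc1a, a coactivator, at -0.14.

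Genes that insulin raises in liver were also mixed. By the brightest probe set, 1 of 10 expressed members was higher and 1 lower, with a median of 0.02. Elovl6, a fatty acid elongase, was higher at 538 against 341 (log2 difference 0.65), followed by the citrate lyase gene Acly at 0.40. Thrsp, which encodes a nuclear protein linked to lipogenesis, stood lower, at 434 against 1356 (-1.63), but its 3 probe sets spanned -1.63 to 0.12. Srebf1, the transcription factor through which insulin induces lipogenesis, followed at 562 against 782 (-0.47). The probe sets of Acly lay on both sides of zero, from -0.38 to 0.40. The 2 expressed probe sets of Gpam were lower, the brightest at -0.26 and the other at -0.66, past 1.5-fold.

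**Figure D4:**
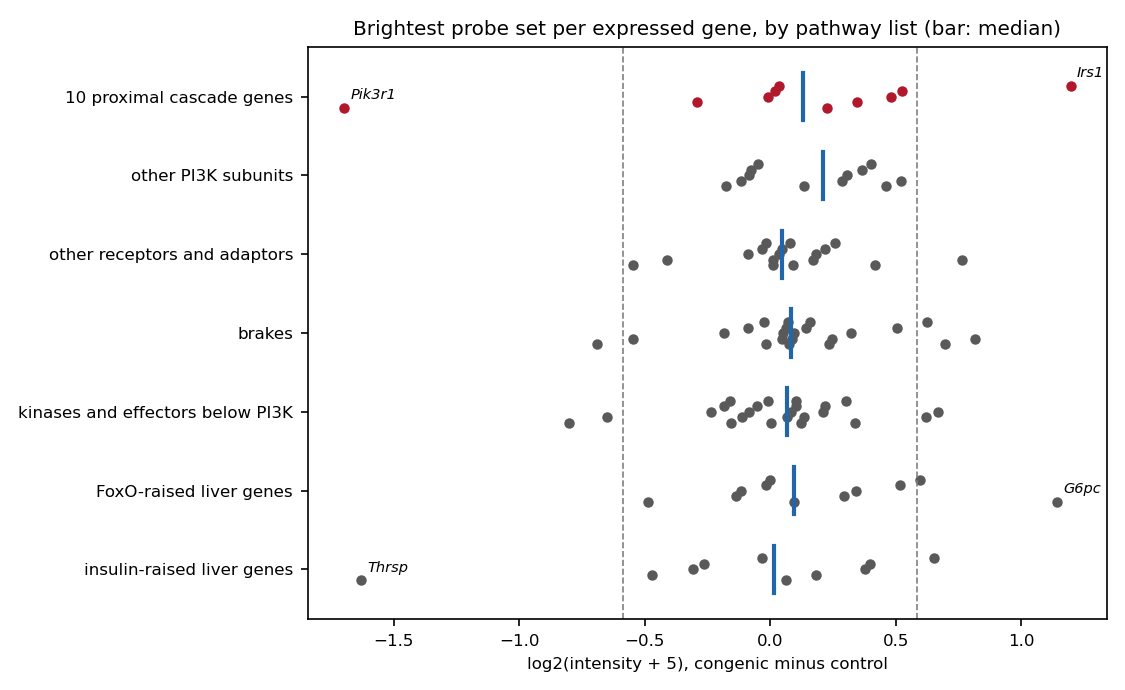
Log2 difference of the brightest probe set of each expressed gene in the 10-gene cascade (red) and in 6 further lists (grey), with the list median as a blue bar and dashed lines at 1.5-fold. Genes beyond 1 on the log2 scale are named, and the medians lie between 0.02 and 0.21.

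Markers of other liver cells differed between the arrays as well, and their part in the values above was not tested. Each marker gene is read here by its brightest probe set unless stated. Among all expressed genes 7.59% were higher and 5.26% lower by 1.5-fold. By these probe sets the 8 hepatocyte markers all lay within 1.5-fold, with summed intensities of 78762 and 77174 on the congenic and control array. Other probe sets lay further out. The 4 of Hnf4a ran from -0.59 to -0.26, and the 2 of Apob from -0.04 to 0.64. All 6 neutrophil markers were higher by 1.5-fold, with log2 differences from 1.41 for S100a9 to 3.78 for Camp and sums of 3926 and 1219. Camp, Ltf and Mpo were under the control array's median (6.35, 9.1 and 9.28) and counted as expressed through the congenic array alone, so the size of their differences depends on the pseudocount. Among 6 Kupffer cell markers all were higher at any size and 4 by 1.5-fold, from 0.19 for Cd5l to 1.85 for Marco, with sums of 16374 and 11175. Of 5 lymphocyte markers read on the array, 3 were expressed and all 3 were higher, from 1.05 for Nkg7 to 2.87 for Jchain. The sums over all 5 were 906 and 182. The 8 expressed probe sets of Ighm ran from -0.09 to 2.66. Below the filter, the T cell marker Cd3e had 7.44 against 10.77 (-0.34) and the B cell marker Cd79a 13.94 against 3.74 (1.12). Of 6 endothelial markers 5 were higher at any size, with a median log2 difference of 0.33. By 1.5-fold 0 were higher and 1 lower (Lyve1, -0.64), with sums of 3111 and 2807. The 2 probe sets of Cdh5 were at 0.53 and 1.16, and the dimmer one passed 1.5-fold. Of 6 stellate cell markers 2 were higher by 1.5-fold, with sums of 5738 and 5290. One of these, Pdgfrb, had probe sets on both sides of zero, from -0.54 to 0.67. Muscle, fat, pancreatic and bile duct markers had summed intensities between 59 and 325. No marker was listed at 0, and the lowest were Ins2 at 1.36 on both arrays and Lep at 1.39 and 1.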

How the data were processed

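Liver total RNA (8 µg) was labelled with biotin by the standard Affymetrix protocol, per the labels. The authors deposited 1 linear intensity per probe set and array. Probe summarization, array scaling and the software are not given in the sources. Intensities were used as deposited, since the array medians differed by -0.03 on the log2 scale. With 1 array per group there was no test, and differences of log2(intensity + 5) were counted at 1.5-fold, beside the share of all expressed features that differed by as much in the same direction. The number of arrays limits the precision. Genes were named from the 34945 probe sets with 1 symbol (932 had several and 9160 none) and represented by the probe set of highest mean intensity. The 64 control probe sets were left out. The text names all 10 genes, and of each pathway list the 2 highest and 2 lowest genes and those past 1.5-fold, with a few relatives chosen after their values were seen. Cell type markers are given as counts, sums and extremes. The genes and lists were chosen with earlier results of these data known. The procedure was tested on simulated data. Promoter sequences are from RefSeq (GRCm38.p6). Tools were Python 3.11.15, pandas 2.3.3 and statsmodels 0.14.6.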

Additional observations from a re-analysis of the deposited data

How the results depend on the processing

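Counts at 1.5-fold were recomputed under 12 alternatives covering the pseudocount (20 or none), array scaling (median centring, quantile normalization, loess trend removed), the expression filter, the fold size, plain _at probe sets alone, and the mean or median over a gene's probe sets. Of 68 recomputed counts, 62 stayed within 1.5 times the reported count, and the count of 1 higher and 1 lower gene among the 10 was the same in each. Without a filter 2 probe sets of the cascade were higher. At the 75th percentile filter 2 were lower and 4 other pathway genes were higher. With 2-fold in place of 1.5-fold, 2 probe sets of the cascade were lower, and 1 other pathway gene was higher and 1 lower. These follow from the sets and sizes that the settings admit. Of 145 recomputed probe set differences, 140 moved by less than 0.34, the SD between probe sets of a gene, and none past 1.5-fold changed sign. With a pseudocount of 20, 1421380_at of Insr moved to -0.64 and 1451737_at of Pik3r1 to -1.26, and 1425515_at of Pik3r1 fell within 1.5-fold at -0.54, which left 3 lower probe sets in the cascade. No replicate could be left out, and no paired analysis was possible because each group has 1 array. Signals near the array medians limit the dim probe sets.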

Other observations

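The genes that flank Irs1 and Pik3r1 were read to place each gene beside its chromosomal neighbours, taking the 5 nearest expressed protein-coding genes on either side in the RefSeq gene order. This comparison was chosen after the values of both genes were seen. Around Irs1 on chromosome 1 the 10 neighbours had a median log2 difference of 0.01, and 3 of them passed 1.5-fold, 2 higher and 1 lower, beside 7.59% and 5.26% of all expressed genes. Of these 3, Slc19a3 and Fam124b counted as expressed through the array on which they are high, so their difference is partly set by the filter. Dock10, an exchange factor for small GTPases and the next expressed gene on one side, had 143 for the congenic and 74.7 for the control array (log2 difference 0.89). Rhbdd1, a rhomboid protease gene and the next on the other side, had 247 against 249 (-0.01). Slc19a3, a thiamine transporter, was higher at 28.3 against 12.2 (0.95), and Fam124b was lower at 12.2 against 37.7 (-1.31), both dim. Pid1, whose product is known to interfere with insulin signalling in fat cells, had 1339 against 1597 (-0.25). Around Pik3r1 on chromosome 13 the 10 neighbours ranged from -0.14 to 0.58, and 0 passed 1.5-fold. Its immediate neighbours were Slc30a5, a zinc transporter, at 342 against 378 (-0.14), and Cd180, a B cell and macrophage surface protein, at 64.1 against 41.6 (0.57).

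Apoe, the gene named in the control strain, had 229 for the congenic and 118 for the control array (log2 difference 0.93) in its 1 probe set. The brightest probe sets of Apoa1 and Apob were far brighter, Apoa1 at 13964 and 13395 and Apob at 7732 and 7941 on the congenic and control array. Whether intensities of different probe sets compare RNA amounts between genes was not tested. The position of the Apoe probe set relative to the disrupted stretch is not known, and the genotype of either group was not tested.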
